A study of Mus musculus with 7 samples.

Results

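The genes described here encode proteins of caveolae and of the fenestral diaphragm in the mouse endothelial line MS-1, derived from pancreatic islets, in which RNA was sequenced with and without overexpression of lipoprotein lipase (LPL), a secreted enzyme that breaks down the triglyceride of blood lipoproteins. They were taken by symbol from the deposited count tables, and all 8 (Plvap, Cav1, Cav2, Ptrf, Ehd2, Ehd4, Pacsin2 and Pacsin3) were found among the 49585 genes listed, each listed a single time. All 8 were among the 13639 genes with enough reads to be tested. The libraries fall into 4 of MS-1 cells with the genotype LPL overexpression and 3 of MS-1 cells with the genotype WT, called control, all grown in DMEM. The labels give neither the species of the LPL sequence, nor how it was introduced, nor whether the overexpressing cells are a clone, and no vector-only library was analysed here. Nothing in them says that the replicates were separate cultures, and the p-values then measure only how these libraries scatter, which may be technical.

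Caveolae are flask-shaped pits of the plasma membrane that are abundant in capillary endothelium. Caveolins embed in the membrane and oligomerise, cavins coat the bulb, F-BAR proteins of the PACSIN family bind and bend the membrane, and EHD ATPases assemble at the neck and hold the pit at the surface. In fenestrated endothelium, including that of pancreatic islets, fenestrae and many caveolae are spanned by a thin diaphragm whose known component is the PLVAP protein. Caveolae are known for roles in transcytosis, in buffering membrane tension and in restraining the nitric oxide synthase of endothelium.

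Coordinates are those of the deposited files, 1-based, on mm10. Plvap (ENSMUSG00000034845.6) lies on the minus strand of chromosome 8 from 71497765 to 71511752, and Cav1 (ENSMUSG00000007655.16) on the plus strand of chromosome 6 from 17306335 to 17341452. Cav2 (ENSMUSG00000000058.6) lies on the same strand upstream of Cav1, from 17281185 to 17289115, with a gap of 17219 bases between them. Ptrf (ENSMUSG00000004044.9), the older symbol of Cavin1 that the files use, spans 100956733 to 100970887 on the minus strand of chromosome 11. Ehd2 is on chromosome 7 (15946958 to 15967567), Ehd4 and Pacsin3 on chromosome 2 (120089175 to 120154606 and 91255954 to 91264679), and Pacsin2 on chromosome 15 (83375607 to 83464606). GENCODE vM21 annotates all 8 as protein-coding with the same start and end. Pacsin2 was the only member that another gene overlaps on its own strand, the predicted gene Gm5417 with 22 reads over the 7 libraries. Gtpbp3 overlaps Plvap on the opposite strand, and reads in the antisense orientation made up at most 0.334% of the reads of any member.

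Cav1 and Cav2 are shown first because they are neighbours whose ratio of levels differed between the groups. The 300 bases around each RefSeq start, 250 before it and 50 after, were taken on GRCm38.p6 (the same assembly as mm10) for 7 of the 8 members, all but Plvap, as 12 promoters. Capitals mark matches on either strand to the GC box (GGGCGG), the CCAAT box, the TATA box (written as TATAAA), an ETS core (written as AGGAAG) or an E-box (the forms CACGTG and also CATGTG). The Cav2 promoter is at chr6:17280935-17281234 and that of the upstream Cav1 start at chr6:17306085-17306384, both on the plus strand.
Cav2: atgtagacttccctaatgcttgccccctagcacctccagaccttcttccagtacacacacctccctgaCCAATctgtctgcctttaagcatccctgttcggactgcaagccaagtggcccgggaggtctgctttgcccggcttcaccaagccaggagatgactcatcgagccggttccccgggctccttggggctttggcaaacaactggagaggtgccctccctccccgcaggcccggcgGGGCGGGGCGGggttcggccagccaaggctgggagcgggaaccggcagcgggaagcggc
Cav1: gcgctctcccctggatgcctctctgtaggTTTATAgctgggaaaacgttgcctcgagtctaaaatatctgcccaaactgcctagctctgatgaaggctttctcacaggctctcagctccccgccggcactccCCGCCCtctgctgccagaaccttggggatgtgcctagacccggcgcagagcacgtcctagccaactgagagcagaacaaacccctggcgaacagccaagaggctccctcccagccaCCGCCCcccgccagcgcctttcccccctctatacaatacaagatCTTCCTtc
Both hold 2 GC boxes, which in Cav2 overlap each other by a base. Cav2 also holds a CCAAT box, and Cav1 a TATAAA match and an AGGAAG match. Of the 12 member promoters, 9 held GGGCGG and 8 held CCAAT, against 35.7% and 37.4% of all 32851 promoters of this length. The TATA box was in 1 of the 12 (13.6% of all) and the ETS core in 2 (35.4% of all). CATGTG was in 1 of them (14.2% of all) and CACGTG in 0 (7.15% of all). Cav2 had 16 CG dinucleotides and Cav1 13, where the median promoter had 7. Some genes have several promoters among the 12. Those of Ptrf overlap almost fully, while those of Pacsin2 lie far apart (from 83432801, 83447831 and 83464557 on chromosome 15). A match describes letters and not a bound site.

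Reads counted per library numbered 24328418 to 29210847 with LPL overexpression (n = 4) and 26514501 to 28104402 in controls (n = 3). Lpl itself had 10867, 12691, 10901 and 12753 reads with overexpression and 1, 1 and 6 in controls. Of 14 endothelial markers, 13 could be tested, and Pecam1, which encodes an adhesion molecule of endothelial junctions, stood at 1145 ± 17.8 TPM (transcripts per 1000000, a level corrected for gene length; SD, n = 4) with overexpression and 1479 ± 5.49 TPM (SD, n = 3) in controls. Pecam1 had the largest fall of the 13, a log2 fold change of -0.40 with overexpression, where the median of the 13 was -0.14. With it 8 of the 13 were lower, where 21.3% of all 13639 genes tested were lower and 21.9% higher. Egfl7 and Esam were higher, with log2 fold changes of 0.12 and 0.07, and Tie1, Eng and Vwf did not pass the test. Cldn5, of tight junctions, had at most 1 read in any library and Vwf, of Weibel-Palade bodies, at most 41. In the same 4 overexpression libraries, 10 of 10 pigment cell markers were higher. Their summed level was 2136 to 2255 TPM with overexpression and 2.73 to 2.78 TPM in controls, where 6 of the 10 (Tyrp1, Dct, Tyr, Mlana, Sox10 and Oca2) had 0 reads. The part of these pigment cell transcripts in the results below was not tested. Markers of adipocytes, skeletal muscle and fibroblasts, other cell types rich in caveolae, summed to at most 2.06 TPM per list in any library, with Lep, Myod1 and Dcn at 0 in all 7. In those 3 lists 1 of 2 tested fibroblast genes was higher, Col1a2, a collagen gene with 139 reads in all with overexpression and 2 in controls, while the 1 adipocyte gene tested did not pass and no skeletal muscle gene had enough reads. The smooth muscle and pericyte list summed to 3.70 to 4.26 TPM with overexpression and 2.33 to 2.51 TPM in controls, and 2 of its 3 tested genes were higher. These were Cspg4, a proteoglycan gene with 84 reads in all with overexpression and 1 in controls, and Notch3, a Notch receptor gene. Pdgfrb did not pass, and Acta2, Myh11, Cnn1, Tagln, Des and Rgs5 had at most 8 reads in any library and were not tested. Which cells gave the Cspg4 and Notch3 reads was not tested, nor was the part of transcripts of these other cell types in the results. The macrophage list reached 273 TPM with overexpression and 199 TPM in controls, nearly all of it Cd68, with Adgre1 at 0 in all libraries.

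Plvap fell with LPL overexpression, Cav2, Ptrf, Ehd2 and Pacsin2 fell less, and Cav1, Ehd4 and Pacsin3 did not pass the test. When libraries were scaled to endothelial markers, Ptrf and Ehd2 no longer passed. Of the 8 genes, 5 were lower and 0 were higher at an adjusted p of 0.05 in edgeR's quasi-likelihood test. The adjustment (Benjamini-Hochberg) and the background cover all 13639 genes tested, of which 21.3% were lower, 21.9% were higher and 43.2% changed in either direction. Rises made up 50.7% of all calls with TMM scaling, which assumes that most genes do not move, 61.5% in a limma fit of log2(TPM + 0.5) and 84.1% when libraries were scaled to endothelial markers, as described below. Most of the members are abundant and so counted precisely. Among the 1880 tested genes with a mean of at least 100 TPM, a minimum that 7 of the members exceed, 36.1% were lower. The median log2 fold change of the members was -0.13, against 0.00 over all genes tested, and the share of members lower lies above both backgrounds. Endothelial markers (8 of 13 tested), raft neighbours (7 of 12), EHD and PACSIN partners (6 of 12) and transport genes (4 of 10) lay above both too. VEGF genes (3 of 9), clathrin genes (4 of 16) and other coat and neck genes (2 of 8) did not lie above both. Members and lists were chosen with earlier results of these data known. The groups did not overlap in 5 of the 8 members, all lower, where over all genes tested this held for 17.6% in the lower direction, 27.3% in the higher and 44.9% in either. In these bulk libraries fewer cells of a type and less RNA per cell cannot be told apart.

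PLVAP forms the radial fibrils of the diaphragm, and its gene had the largest change of the 8. Plvap stood at 381, 354, 379 and 375 TPM in the LPL overexpression libraries and at 544, 563 and 573 TPM in the controls. Every overexpression library was below every control, with a distance between the groups far wider than the spread within either. The log2 fold change was -0.62 (SE 0.03, edgeR adjusted p = 8.00e-26), a level that fell by 34.8%. Over all genes tested, 278 (2.04%) had as low or lower a log2 fold change, and 12 of the 1880 genes with at least 100 TPM. The log2 fold change was between -0.64 and -0.59 with any library left out.

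**Figure D1:**
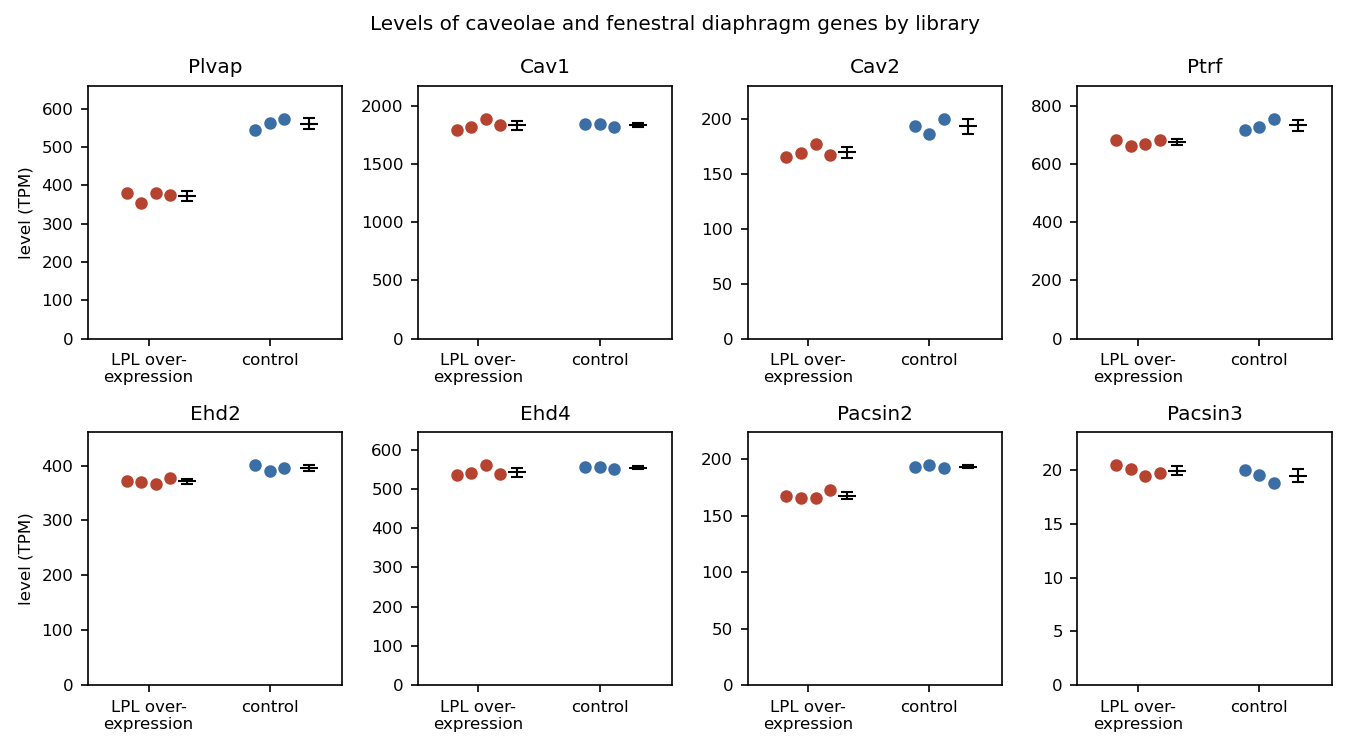
Level of each gene in TPM (vertical axes, from 0) in the 4 LPL overexpression and the 3 control libraries. Points are libraries and bars beside them the mean and SD. The groups lie apart for Plvap, Cav2, Ptrf, Ehd2 and Pacsin2 and overlap for Cav1, Ehd4 and Pacsin3.

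The caveolins differed from each other. Caveolin-1 is the protein without which endothelial caveolae do not form, and Cav1 was the most abundant member, ranked 52 by mean TPM of all genes listed. Cav1 stood at 1794, 1821, 1889 and 1833 TPM with overexpression and at 1850, 1842 and 1817 TPM in controls. Those values are interleaved. The log2 fold change was -0.03 (95% interval -0.08 to 0.02, edgeR adjusted p = 0.367), so that a change between a fold of 0.948 and 1.01 is within the interval.

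Caveolin-2 forms hetero-oligomers with caveolin-1 and depends on it to reach the surface. Its gene stood at 165, 169, 177 and 167 TPM with overexpression and at 193, 186 and 199.7 TPM in controls. Every overexpression library was below every control. Cav2 had a log2 fold change of -0.21 (SE 0.03, edgeR adjusted p = 3.92e-09), a level that fell by 13.8%.

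Ptrf and Ehd2, a gene of the cavin coat and a gene of the neck, fell by smaller amounts. Cavin-1, the product of Ptrf, is the cavin that caveolae need to form. Ptrf stood at 683, 663, 669 and 683 TPM with overexpression and at 716, 728 and 755 TPM in controls. This was a log2 fold change of -0.15 (SE 0.02, edgeR adjusted p = 2.03e-06). EHD2 is the EHD protein found at the caveolar neck. Ehd2 stood at 371, 371, 366 and 377 TPM with overexpression and at 400.2, 389.5 and 396 TPM in controls, with a log2 fold change of -0.12 (SE 0.02, edgeR adjusted p = 4.84e-05). For both genes every overexpression library was below every control, and the levels fell by 9.69% and 7.83%. Neither call held when libraries were scaled to endothelial markers (log2 fold change -0.04 with edgeR adjusted p = 0.312 for Ptrf, and -0.01 with adjusted p = 0.879 for Ehd2).

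EHD4, which can take the place of EHD2 at the neck and also works on endosomes, had a gene whose result lay at the threshold. Ehd4 stood at 534, 540.2, 559 and 537 TPM with overexpression and at 557, 556 and 549.8 TPM in controls. Replicate 3 of the overexpression group was above all controls and the other 3 libraries were below them. The log2 fold change was -0.06 (95% interval -0.11 to -0.01, edgeR adjusted p = 0.0501). Without LPL overexpression replicate 3 it was -0.07 with an adjusted p of 0.0309, and with DESeq2 -0.05 with an adjusted p of 0.0432. Over all settings and libraries left out the adjusted p lay between 0.0309 and 0.282.

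Of the PACSIN genes, Pacsin2 fell and Pacsin3 did not pass, and the difference between their changes was not tested. PACSIN2 is the F-BAR protein of caveolae in most cells, and PACSIN3 is best known from muscle. Pacsin2 stood at 167, 166, 165 and 173 TPM with overexpression and at 193, 194 and 192 TPM in controls, and every overexpression library was below every control. Its log2 fold change was -0.23 (SE 0.03, edgeR adjusted p = 3.90e-11), a level that fell by 14.9%. Pacsin3 was the least abundant member, at 20.5, 20.1, 19.5 and 19.7 TPM with overexpression and at 20.1, 19.6 and 18.9 TPM in controls. Its groups overlap, with a log2 fold change of 0.01 (95% interval -0.09 to 0.10, edgeR adjusted p = 0.928). The interval reaches a fold of 0.942 downward and of 1.07 upward, wider than for the other members because Pacsin3 had 638 to 778 reads per library.

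Cav1 led the order of levels in both groups, followed by Ptrf, and Pacsin3 came last. With overexpression the order of the others was Ehd4, Plvap, Ehd2, Cav2 and Pacsin2, and the ranges of Plvap and Ehd2 (354 to 381 and 366 to 377 TPM) and of Cav2 and Pacsin2 (165 to 177 and 165 to 173 TPM) overlapped. In controls it was Plvap, Ehd4, Ehd2, Pacsin2 and Cav2, with overlapping ranges for Plvap and Ehd4 (544 to 573 and 549.8 to 557 TPM) and for Pacsin2 and Cav2 (192 to 194 and 186 to 199.7 TPM). The range of Plvap thus met that of Ehd2 with overexpression and that of Ehd4 in controls. Together the 8 genes took 4104 to 4224 TPM with overexpression and 4473 to 4502 TPM in controls. Plvap made up 8.62% to 9.25% of that sum with overexpression and 12.2% to 12.7% in controls, and Cav1 43.6% to 44.7% with overexpression and 40.4% to 41.4% in controls.

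Ratios within a library do not depend on how libraries are scaled, so 3 of them were compared. Plvap per Cav1 was 0.203 ± 0.00759 (SD, n = 4) with overexpression and 0.305 ± 0.0106 (SD, n = 3) in controls, a difference of -0.59 in log2 (exact two-sided permutation test over 35 splits p = 0.0286, adjusted over the 3 ratios 0.0429). Cav2 per Cav1 was 0.0924 ± 0.00100 with overexpression and 0.105 ± 0.00453 in controls, a difference of -0.19 (exact permutation p = 0.0286, adjusted 0.0429). A p of 0.0286 is the smallest that 4 libraries against 3 can give. Ptrf per Cav1 was 0.368 ± 0.0115 with overexpression and 0.399 ± 0.0148 in controls, a difference of -0.12 that did not pass (exact permutation p = 0.0571, adjusted 0.0571). In each of the 3 ratios all 4 overexpression libraries were below all 3 controls.

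**Figure D2:**
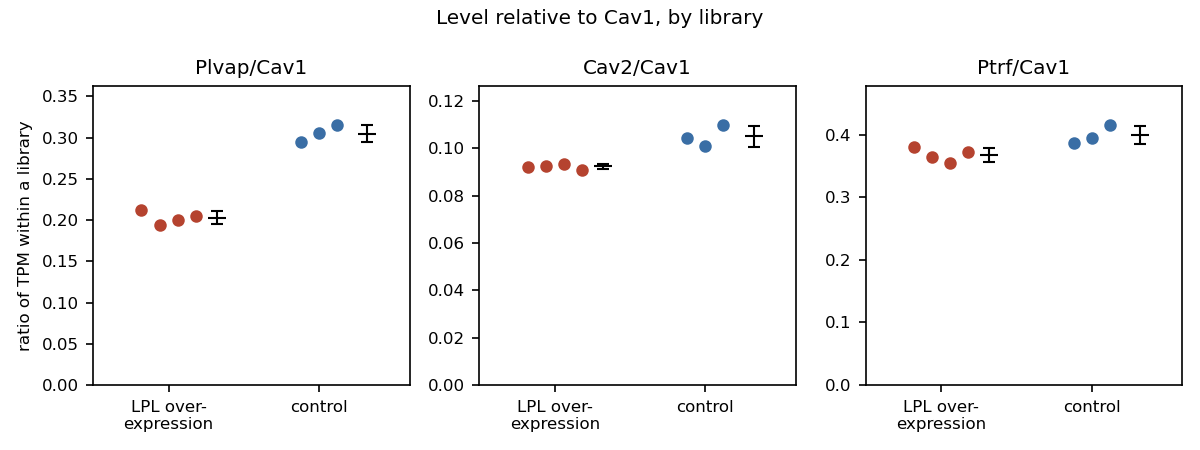
Ratio of the TPM of Plvap, Cav2 and Ptrf to that of Cav1 (vertical axes, from 0) in the 4 LPL overexpression and the 3 control libraries, with the mean and SD beside the points. The Plvap ratio lies between 0.194 and 0.212 with overexpression and between 0.294 and 0.315 in controls.

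Endothelial markers were lower in the overexpression libraries too. Of 13 tested, 8 were lower and 2 higher, the median being -0.14 in log2. Over all genes tested 21.3% were lower and 21.9% higher, and 36.1% were lower among those with a mean of at least 100 TPM. The summed level of the markers was 4492 to 4617 TPM with overexpression and 4960 to 4972 TPM in controls. Library sizes were therefore also set so that these 13 markers were level on average, a scaling chosen after the data were seen, which raised the median log2 fold change of all genes to 0.11. With it Plvap was at -0.50 (edgeR adjusted p = 1.11e-30), Pacsin2 at -0.12 (1.88e-04) and Cav2 at -0.10 (0.00261), still lower. Ptrf at -0.04 (edgeR adjusted p = 0.312) and Ehd2 at -0.01 (0.879) no longer passed. Cav1 at 0.08 (edgeR adjusted p = 0.0132) and Pacsin3 at 0.12 (0.0357) were called higher, near the shifted median of all genes. The count of members went to 3 lower and 2 higher, where 1181 of all 13639 genes tested were lower and 6242 higher. The scaling takes the markers as level, which was not tested, and Kdr and Flt1 belong to both this list and that of VEGF receptors. Each of the 13 markers had the same weight, including Vwf with only 28 to 41 reads per library. How far Vwf moved the scale was not tested.

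**Figure D3:**
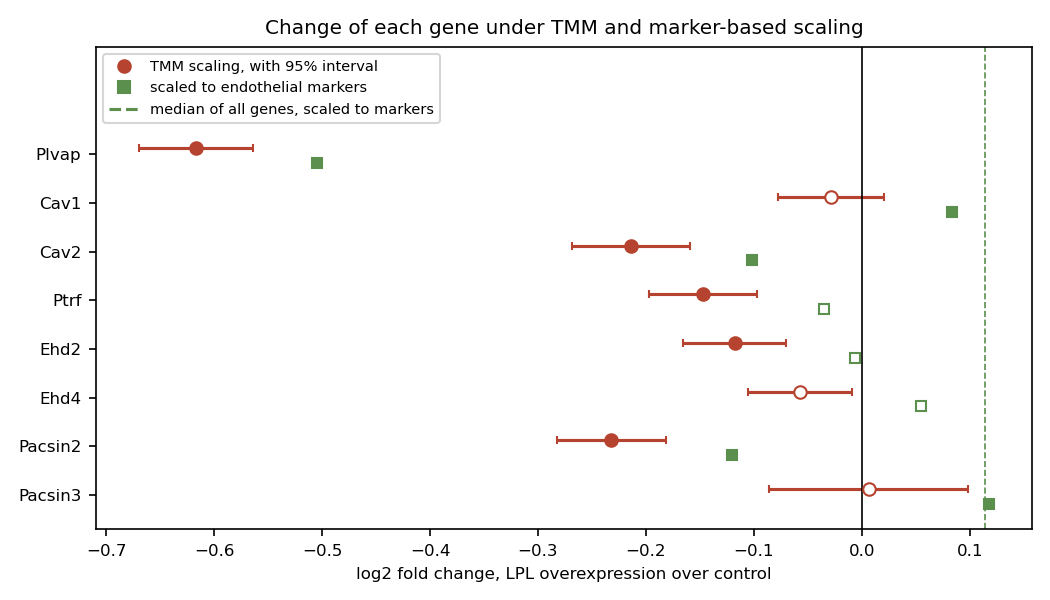
Log2 fold change of each gene, LPL overexpression over control (horizontal axis), with TMM scaling (circles with 95% intervals) and with libraries scaled to the endothelial markers (squares). Filled symbols passed the test, open ones did not, and the dashed line is the median of all genes, 0.11, under the marker scaling. Plvap lies lowest under both.

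Other genes of the caveolar coat and neck moved in both directions. Of 13 listed, 8 could be tested, 5 rose and 2 fell, the median being 0.09 in log2 (6 rose and 1 fell under the marker scaling, 3 to 5 and 1 to 2 with a library left out). Among all 13639 genes tested, 21.9% rose and 21.3% fell with TMM scaling, and 6242 rose and 1181 fell under the marker scaling. Ehd3, an EHD ATPase of endosomal recycling, rose to 10.5 ± 1.05 TPM with overexpression, against 4.85 ± 0.413 TPM in controls, a log2 fold change of 1.09 (SE 0.09). Ehd1, its closest relative in recycling, fell to 302 ± 8.88 TPM with overexpression, against 346 ± 9.34 TPM in controls. The dynamins, GTPases that sever membrane necks, were higher. Dnm2, the ubiquitous one, was at 90.3 ± 2.42 TPM with overexpression and 81.7 ± 0.630 TPM in controls, and Dnm1, best known from neurons, at 1.01 ± 0.165 TPM with overexpression and 0.391 ± 0.135 TPM in controls. Dnm3 and Flna also rose and Cavin3 (Prkcdbp in the files) fell, genes named after their values were seen. Cavin2 (Sdpr), the remaining cavin of endothelium, did not pass, at 207 ± 8.15 TPM with overexpression and 208 ± 1.21 TPM in controls (edgeR adjusted p = 0.329). It was named after its values were seen. Cav3, Cavin4 and Pacsin1, the muscle and neuronal relatives of the members, had at most 2 reads in any library and were not tested, nor were Ror1 and Bves. The pigment cell markers rose in the same libraries as Ehd3 and Dnm1, and which cells gave those reads was not tested.

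Genes of neighbouring membrane domains were mostly lower, by smaller margins under the marker scaling. Of 13 listed, 12 were tested, 7 fell and 1 rose, the median being -0.16 in log2, and under the marker scaling 6 fell and 4 rose. That scaling gave 1181 falls and 6242 rises among all 13639 genes tested, and with TMM scaling 21.3% fell and 21.9% rose. Prom1, which encodes a cholesterol-binding protein of membrane protrusions, fell to 84.2 ± 2.50 TPM with overexpression, against 126 ± 4.59 TPM in controls, a log2 fold change of -0.61. Nos3, the endothelial nitric oxide synthase that caveolin-1 binds, fell to 733 ± 26.0 TPM with overexpression, against 845 ± 23.4 TPM in controls. The Src-family kinase genes Lyn and Yes1 fell to 52.9 ± 2.04 and 29.4 ± 0.612 TPM with overexpression, and their log2 fold changes were -0.41 and -0.28. Stom, Src and Fyn were the other falls. The rise was Pag1, with 7 to 15 reads per overexpression library and 0 in controls, at least 10.8-fold above a floor of 3 counts over the group. Pag1 was not among the calls when LPL overexpression replicate 1, 2 or 3 was left out. The filter on low counts was applied anew in those fits, so Pag1 may not have been tested in them. Nostrin was at 0 in all libraries. Stom, Src, Fyn and Pag1 were named after their values were seen.

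Partners of EHD and PACSIN proteins in recycling had falls and no rises with TMM scaling, a balance that turned with the marker scaling. Of 12 tested, 6 fell and 0 rose, the median being -0.07 in log2, while under the marker scaling 4 fell and 6 rose and the median was 0.04. Over all genes tested, 21.3% were lower and 21.9% higher with TMM scaling. Under the marker scaling 6242 of all 13639 were higher and 1181 lower, with a median of 0.11. Cobl, an actin nucleator that PACSIN proteins bind, fell to 12.7 ± 0.266 TPM with overexpression, against 18.8 ± 1.33 TPM in controls, a log2 fold change of -0.59. Ehbp1l1, Micall1 and Rab11fip5, whose products link EHD proteins or Rab GTPases to recycling tubules, had log2 fold changes of -0.29, -0.25 and -0.20. Rab35 and Wasl, named after their values were seen, were the other falls.

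The clathrin coat, a separate route of uptake, did not move one way. Of 16 tested, 5 rose and 4 fell, the median being 0.02 in log2. With TMM scaling 21.9% of all genes tested rose and 21.3% fell. Dab2, a cargo adaptor, fell to 203 ± 3.67 TPM with overexpression, against 255 ± 6.43 TPM in controls. Ap2b1, a subunit of the AP-2 adaptor, rose to 103 ± 1.81 TPM with overexpression, against 88.3 ± 1.58 TPM in controls. Picalm and Epn1, whose products help curve the coat, fell with log2 fold changes of -0.08 and -0.09. Ap2a2 fell, and Cltc, Ap2m1, Fcho2 and Itsn1 rose, by at most 0.12 in log2, all named after their values were seen. These small calls changed with the setting: 11 rose and 1 fell under the marker scaling, and over the other alternatives 1 to 7 rose and 1 to 4 fell. The count of 1 rise came without control replicate 1. Falls numbered 2 without LPL overexpression replicate 2 or 4 or control replicate 2. Among all 13639 genes tested, 6242 rose and 1181 fell under the marker scaling.

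Of 10 tested genes for transport across endothelium, 3 rose and 4 fell, the median being -0.06 in log2, and under the marker scaling 4 rose and 2 fell with a median of 0.05. With that scaling 6242 of all 13639 genes tested rose and 1181 fell, and with TMM scaling 21.9% rose and 21.3% fell. Slc2a1, the glucose transporter GLUT1, fell to 189 ± 9.67 TPM with overexpression, against 221 ± 4.38 TPM in controls. Lrp8, a receptor for apolipoprotein E and reelin, fell with a log2 fold change of -0.26. Tfrc, the transferrin receptor, rose with a log2 fold change of 0.10 and Fcgrt, the neonatal Fc receptor, stood at 1.24 ± 0.0874 TPM with overexpression and 0.344 ± 0.143 TPM in controls. Acvrl1 and Aqp1 were the other falls, named after their values were seen. Mfsd2a, a lipid transporter that limits caveolar transcytosis in brain endothelium, and Cd36 had at most 3 reads per library and were not tested.

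VEGF signalling is known to sustain fenestrae and PLVAP. Of 9 tested ligands, receptors and SOXF factors, 3 fell and 2 rose, the median of 0.02 in log2 being one that lay between -0.07 and 0.13 over the alternatives. Over all genes tested, 21.3% fell, 21.9% rose and 43.2% changed in either direction with TMM scaling. Kdr, the main VEGF receptor, fell to 98.2 ± 2.96 TPM with overexpression, against 122 ± 1.44 TPM in controls. Flt1, the decoy receptor, fell to 27.0 ± 1.07 TPM with overexpression, against 31.0 ± 0.226 TPM in controls. The co-receptors Nrp2 and Nrp1 rose, with log2 fold changes of 1.07 and 0.37. Sox18 was the other fall, named after its values were seen, and Sox17 had 0 reads. All these lists share the libraries in which the pigment cell markers rose.

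**Figure D4:**
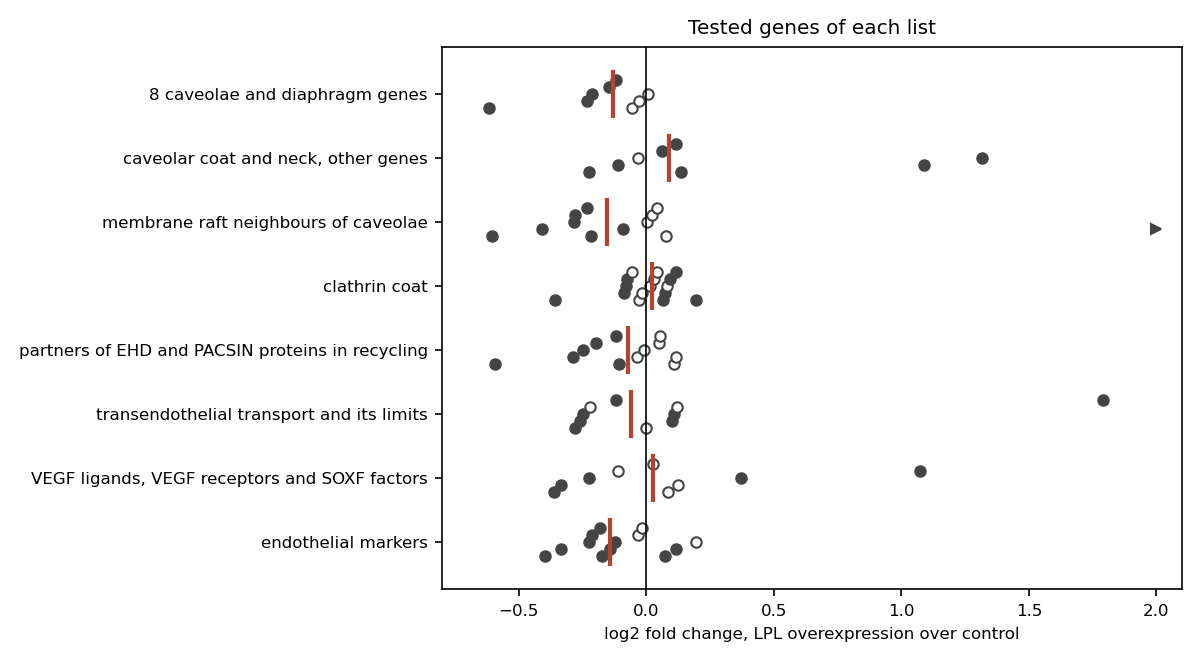
Log2 fold change, LPL overexpression over control (horizontal axis), of each tested gene of the lists. Filled points passed the test, open points did not, vertical bars are medians, and the triangle at the right edge is Pag1, which lies beyond the axis. With TMM scaling the medians run from -0.16 for the membrane raft neighbours to 0.09 for the other genes of coat and neck.

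The genes nearest to Plvap in pattern over the 7 libraries were Prom1, Pgm2l1 and Ppp1r2, among 8758 genes with a mean of at least 10 counts per 1000000 reads (CPM). Likeness was the Euclidean distance between log2 CPM centred on the mean of each gene, which was 0.0803, 0.0892 and 0.0947. All 3 had log2 fold changes between -0.61 and -0.58. For Cav1 the nearest were Gnb1, Rps4x and Pik3c2a, at distances of 0.0242, 0.0266 and 0.0295, with log2 fold changes between -0.04 and -0.03 that did not pass. The distances rest on the difference between the same groups and on the scaling that all genes share.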

How the data were processed

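Total RNA of MS-1 cells was sequenced by the authors from stranded total-RNA libraries, per the labels' protocols, and groups and replicate numbers came from the titles. Reads were aligned with STAR to mm10, per the submitters' processing notes; for versions and annotation release, the entry is: not given in the sources used here. The deposited tables hold whole-number read counts per gene for each read orientation and the authors' TPM values, per the file headers. Reads in reverse orientation (97.0% to 97.1% of oriented reads) were used, for counts and TPM alike.

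Differences were tested with the quasi-likelihood test of edgeR 4.0.16 (R 4.3.3), TMM normalization and filterByExpr by group, on all 7 libraries with group as the only term, with Benjamini-Hochberg adjustment over 13639 genes and a threshold of 0.05. Ratios of TPM were compared by an exact permutation test over 35 arrangements (SciPy 1.17.1). Errors after ± are SD between libraries. The SE and 95% intervals of log2 fold changes were calculated back from the F statistic of the edgeR test. Counting intervals are not given, and Lpl and genes at 0 reads are described without a test. Alternatives were DESeq2 1.42.0, limma 3.58.1 on log2(TPM + 0.5) and log2(TPM + 1), other normalizations, no filter on low counts, both orientations, a replicate block and each library left out. Scaling to endothelial markers was added after the data were seen. The scripts were tested on simulated data, with 50 of the tested genes changed at each size. The fit recovered 12 of 50 at 1.1-fold, 40 at 1.25-fold, 38 at 1.5-fold and 44 at 2-fold. These genes were drawn at random over all levels, and far fewer were changed than the 43.2% called in the data. The recovery thus does not measure the power for the members, most of which are abundant. The members and gene lists were chosen with earlier results of these data known. From each pathway list the text names the 4 tested genes of smallest adjusted p, and any gene not tested, except where it says otherwise. Markers of cell types are named as examples chosen after their values were seen. Not every list gene is reported here by name. Loci were compared with GENCODE vM21, and promoter sequences are from RefSeq on GRCm38.p6.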

Additional observations from a re-analysis of the deposited data

Results flagged for a closer look

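Of 35 sets of values in the group of 4 LPL overexpression libraries that were examined for a library standing apart, 1 was marked. Picalm, a clathrin assembly protein gene, had 58.6 TPM in LPL overexpression replicate 3 and 54.1 to 54.8 TPM in the other 3 libraries, against 57.5 ± 0.444 TPM (SD, n = 3) in controls. The gap between that library and the nearest was 0.850 of the range of the group, above the critical value of Dixon's test. Chance marks about 1 in 20 such groups.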

How the results depend on the processing

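Plvap, Cav2 and Pacsin2 kept their direction and their call under all 17 alternatives, with log2 fold changes of -0.64 to -0.50, -0.24 to -0.10 and -0.24 to -0.12. The 17 count the same fit under both of its names, replicates 1 to 3 without a block and without LPL overexpression replicate 4. With libraries scaled to the endothelial markers, Ptrf (-0.0351) and Ehd2 (-0.00587) lost their call, Cav1 (0.0834) and Ehd4 (0.0550) changed sign, and Pacsin3 (0.12) passed, which gave 2 members higher and 3 lower and 6242 genes higher and 1181 lower in all. The same scaling gave 1 fall in the coat and neck list, 4 rises among raft neighbours, 11 rises and 1 fall in the clathrin list, 6 rises among EHD and PACSIN partners and 2 falls in the transport list. With DESeq2, Ehd4 (-0.0549) passed and 3 clathrin genes rose. Both limma fits gave 1 fall in the coat and neck list, and both limma fits and upper-quartile normalization gave 1 fall in the clathrin list and 1 rise among the partners.

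With each library left out in turn, log2 fold changes ran from -0.64 to -0.59 for Plvap, -0.04 to -0.02 for Cav1, -0.17 to -0.12 for Ptrf, -0.13 to -0.11 for Ehd2, -0.0702 to -0.0447 for Ehd4 and -0.00896 to 0.0206 for Pacsin3, and 5 to 6 members were lower. Rises and falls ran from 3 to 5 and 1 to 2 in the coat and neck list and from 1 to 5 and 2 to 4 in the clathrin list, and rises from 0 to 1 among raft neighbours. The Plvap ratio to Cav1 ran from -0.61 to -0.56, that of Cav2 from -0.21 to -0.15 and that of Ptrf from -0.14 to -0.09, in designs too small to reach the threshold.

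With a replicate block on replicates 1 to 3 the Plvap log2 fold change was -0.61 and 5 members were lower, and 3010 genes were higher and 2727 lower, against 3002 and 2714 without the block on the same libraries. Same-numbered libraries did not deviate together (correlations of -0.02, -0.04 and 0.02). No pairing by number was thus detected, though such correlations cannot exclude that same-numbered libraries were handled together. The cause of the changes above was not tested. Members other than Pacsin3 are deeply counted, and depth limits Pacsin3 and list genes with under 100 reads most.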
